A study of Mus musculus with 12 samples.

Results

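The interferon response genes described here are 45 mouse genes that interferons induce or that carry and restrain interferon signalling. They were given as a list of names, and a name was measured where a probe set of the array carried that gene symbol and no other. This held for 40 of the 45 names, among 19938 genes measured in all. Where a gene had more than 1 such probe set, the brightest was kept, which concerned Nlrc5 (19 probe sets) and Irf1 (2 probe sets). Isg15, Gbp2, Gbp6 and Igtp lie on probe sets shared with other genes, and Ifi44 is on no probe set of the annotation used here, so these 5 have no value.

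Interferons are secreted signals of infection and inflammation. Type I and type III interferons, made by many cell types after nucleic acid sensors fire, act through Jak kinases on a complex that holds Stat2 and Irf9 and binds the interferon-stimulated response element (ISRE) of antiviral genes. Interferon gamma, made mainly by T cells and natural killer cells, acts on the gamma-activated site (GAS) and through Irf1, and is known for raising guanylate-binding proteins, immunity-related GTPases and the antigen processing machinery; in the colon both programs can run in epithelium and in infiltrating leukocytes.

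The biopsies came from distal colon tumors of 6 living mice, sampled by colonoscopy, with the earliest and the latest biopsy of 1 tumor per mouse on 1 Affymetrix array each. All mice were F1 hybrids (SWR x C57BL/6) with the genotype Apc Min/+, a germline mutation in 1 copy of a Wnt pathway suppressor, and all had drunk 4% dextran sodium sulfate, which injures the colon lining, in 2 periods of 4 days around weaning. The late biopsy was read as adenoma in mice 1755, 1803 and 1805, and as intramucosal carcinoma in mice 2201, 3407 and 3413; early biopsies are labelled unknown and take the reading of their mouse's late one. No group lacked the mutation or the injury, and no normal colon is among the arrays used here. Early biopsies were taken at 86 to 94 days of age in the adenoma group and at 87 to 117 days in the carcinoma group, late ones at 234 to 395 days and at 200 to 267 days, so a part of any difference by pathology cannot be told apart from age. Each group of 3 held 1 female, mouse 1755 or mouse 3407.

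Values are log2 intensities, so a difference of 1 is a 2-fold difference, and levels of different genes cannot be ranked against each other because each probe set has its own brightness. Array medians lay between 7.62 and 7.80, and the means of 8 colon epithelium genes between 11.72 and 12.59 on all 12 arrays. The number of arrays limits the precision. By the submitters' sample numbers the early arrays of mice 1755, 1803, 1805 and 2201 (155 to 255) stand apart from the other 8 arrays (319 to 379); no source used here says what the numbers mark. All 3 adenoma pairs cross these number groups, so in adenoma tumors the late-early difference and the number group cannot be told apart. Probe sequences were not used here, so signal shared between close relatives such as the Gbp, Oas and Ifit families was not tested. Mx1, Mx2 and Gbp5 have means below the 25th percentile of all genes.

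Across the 40 genes, 1 array stood apart. The early biopsy of mouse 1755, which went on to be an adenoma, had the highest of the 12 values for 28 of 40 interferon response genes, where the same array was highest for 10.8% of all genes. Its median deviation from the mean of a gene over the 12 arrays was 1.08 over the 40 genes, and 1.47 over the antiviral effectors. Among the antiviral effectors, a mixed group of interferon-induced genes, 17 of 18 were highest there. At the other end, the late biopsy of mouse 1803 was the lowest array for 18 of 40 genes (4.60% of all genes), and that of mouse 3407 for 12 of 40 (5.65% of all genes). The late biopsy of mouse 2201 was the highest array for 6 of 40, 4 of them among the 5 interferon-induced GTPases, against 4.93% of all genes.

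**Figure D1:**
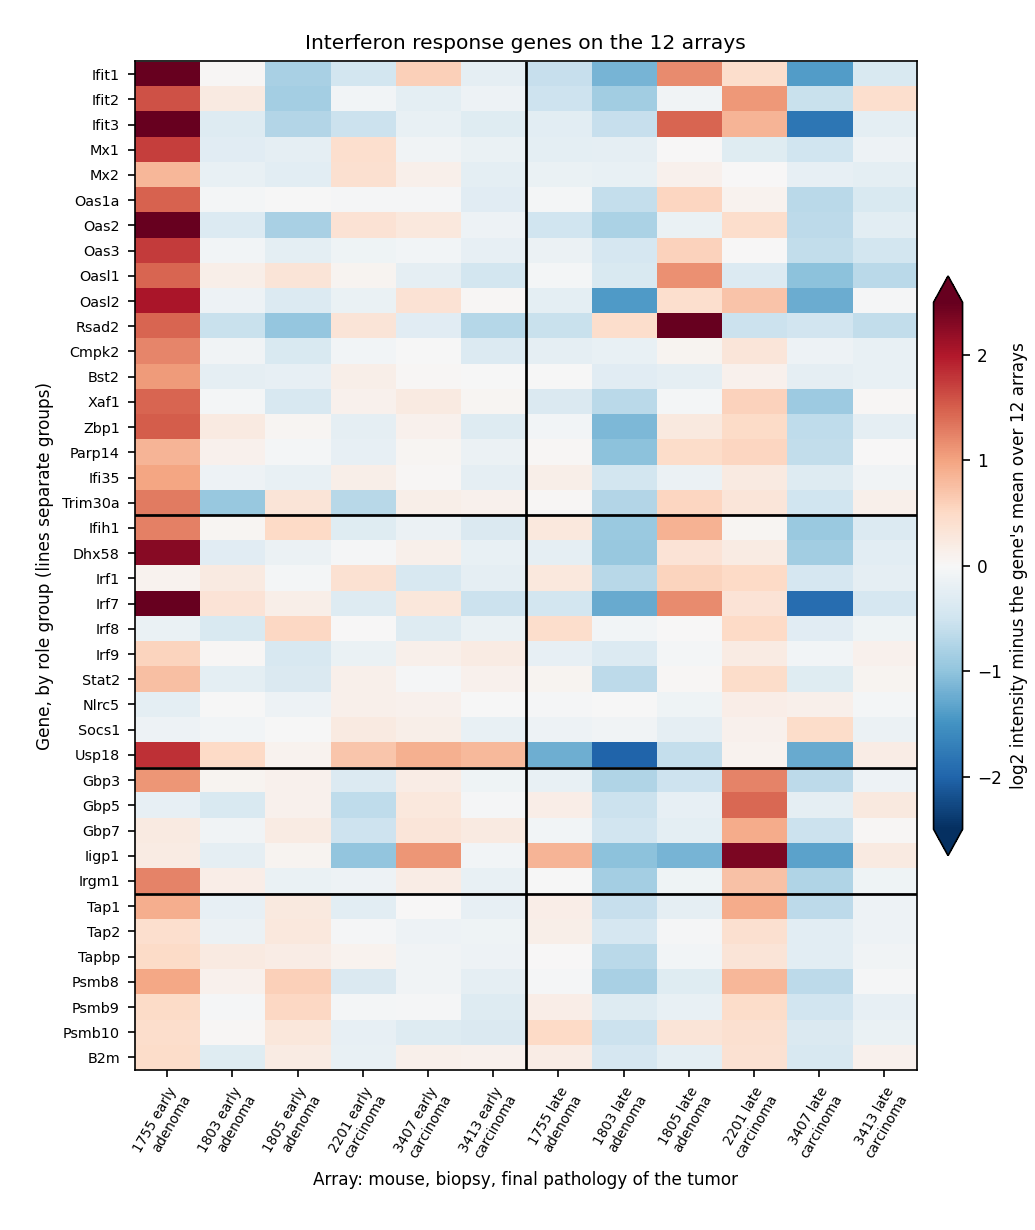
Heat map of the 40 interferon response genes (rows, by role) on the 12 arrays (columns, early biopsies left, late right); color gives the log2 intensity minus the mean of the gene over the 12 arrays, clipped at the ends of the scale. The early biopsy of mouse 1755 is highest for 28 of 40 genes, and the late biopsy of mouse 2201 for 4 of the 5 GTPases.

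The antiviral effectors come first. Ifit1, which binds viral RNA that lacks the methylated host cap, was at 10.98, 8.24 and 7.42 in the early biopsies of adenoma mice 1755, 1803 and 1805, and at 7.77 and 8.82 in those of carcinoma mice 2201 and 3407, with mouse 3413 between them. Its late values were 7.65, 7.06 and 9.40 in the adenoma mice and 8.65, 6.83 and 7.85 in the carcinoma mice. Early and late values overlapped, with the early biopsy of mouse 1755 far above the other 11 arrays. Oas2, which makes the oligoadenylate messenger that activates RNase L, was at 10.57 in that biopsy and between 7.20 and 8.44 elsewhere. For Oasl2, a relative of the Oas enzymes, the value there was 11.70 and the others ran from 8.23 to 10.36. Mx1, a dynamin-like GTPase that acts on influenza-type viruses, had 8.04 there and 5.82 to 6.74 on the other arrays. So 1 biopsy set the top of the range for each of these genes, and the remaining 11 arrays covered a narrower band.

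Rsad2 (viperin), which makes a chain-terminating nucleotide, was the 1 antiviral effector whose highest array was another one. Its early values were 9.63, 7.61 and 7.19 in mice 1755, 1803 and 1805, and 8.49, 7.87 and 7.45 in mice 2201, 3407 and 3413. Late values were 7.61, 8.60 and 10.66 in the adenoma mice and 7.63, 7.68 and 7.54 in the carcinoma mice. The late biopsy of mouse 1805 stood above the rest, and Ifit3, a partner of Ifit1, was second highest there, at 9.98 against 11.16 in the early biopsy of mouse 1755.

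Among sensors, transcription factors and inhibitors, Irf7, the factor that amplifies interferon alpha production, followed the antiviral genes. It was at 12.20, 9.93 and 9.75 in the early adenoma biopsies and at 9.28, 9.88 and 9.06 in the early carcinoma biopsies. The late values were 9.13, 8.33 and 10.77 for the adenoma mice and 9.95, 7.70 and 9.17 for the carcinoma mice. Dhx58 (LGP2), a regulator of RNA sensing, was at 10.18 in the early biopsy of mouse 1755 and between 6.94 and 8.25 elsewhere. Irf1, the factor shared by both interferon programs, spanned only 1.25 over the 12 arrays. Nlrc5, the transactivator of MHC class I genes, spanned 0.41, and Socs1, a feedback inhibitor of Jak kinases, 0.67.

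Most GTPases peaked on another array. Iigp1, an immunity-related GTPase that attacks the vacuoles of parasites, was at 7.00, 6.57 and 6.87 in the early adenoma biopsies and at 5.82, 7.90 and 6.74 in the early carcinoma biopsies. Late values were 7.65, 5.77 and 5.63 in the adenoma mice and 9.16, 5.47 and 7.03 in the carcinoma mice. In mouse 2201 the early value was low and the late value the highest of all arrays. Gbp3, a guanylate-binding protein, was at 9.31 in that late biopsy, above 7.32 to 7.94 in the other late biopsies. It was nearly as high, at 9.18, in the early biopsy of mouse 1755. Gbp5, which promotes inflammasome assembly, was at 7.99 in the late biopsy of mouse 2201 and between 6.03 and 6.81 in the other late ones. Irgm1, a regulator of the other immunity-related GTPases, differed from these by having its highest value, 10.40, in the early biopsy of mouse 1755.

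Differences within a mouse, late minus early, varied between the 4 role groups. The medians over the 18 antiviral effectors were -1.71, -0.39 and 0.52 in mice 1755, 1803 and 1805, and 0.23, -0.64 and 0.01 in mice 2201, 3407 and 3413. All 18 were lower late in mouse 1755, and all 18 in mouse 3407, while 17 of 18 were higher late in mouse 1805; of all genes, 49.8%, 47.4% and 52.8% were lower late in these mice. Over the 5 GTPases the medians were -0.29, -0.80 and -0.46 in the adenoma mice and 1.58, -0.85 and 0.07 in the carcinoma mice. The 7 antigen processing genes had medians of -0.32, -0.37 and -0.45 in the adenoma mice and of 0.57, -0.45 and 0.07 in the carcinoma mice.

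Mouse 1805 was the plainest case of a split, with 17 of 18 antiviral effectors higher late while 6 of 7 antigen processing genes and 4 of 5 GTPases were lower. Its Rsad2 was higher by 3.46, its Ifit3 by 2.18 and its Ifit1 by 1.98, while Iigp1 stood at -1.23 and Psmb8 at -0.90. In mouse 2201 all 5 GTPases and all 7 antigen processing genes were higher late, with Iigp1 at 3.34, Gbp5 at 2.07, Gbp3 at 1.58 and Gbp7 at 1.44, while 64.9% of all genes were lower late in that mouse. In mouse 3413 the 40 differences lay between -0.62 (Usp18) and 0.54 (Ifit2). These are values of single pairs and were not tested.

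**Figure D2:**
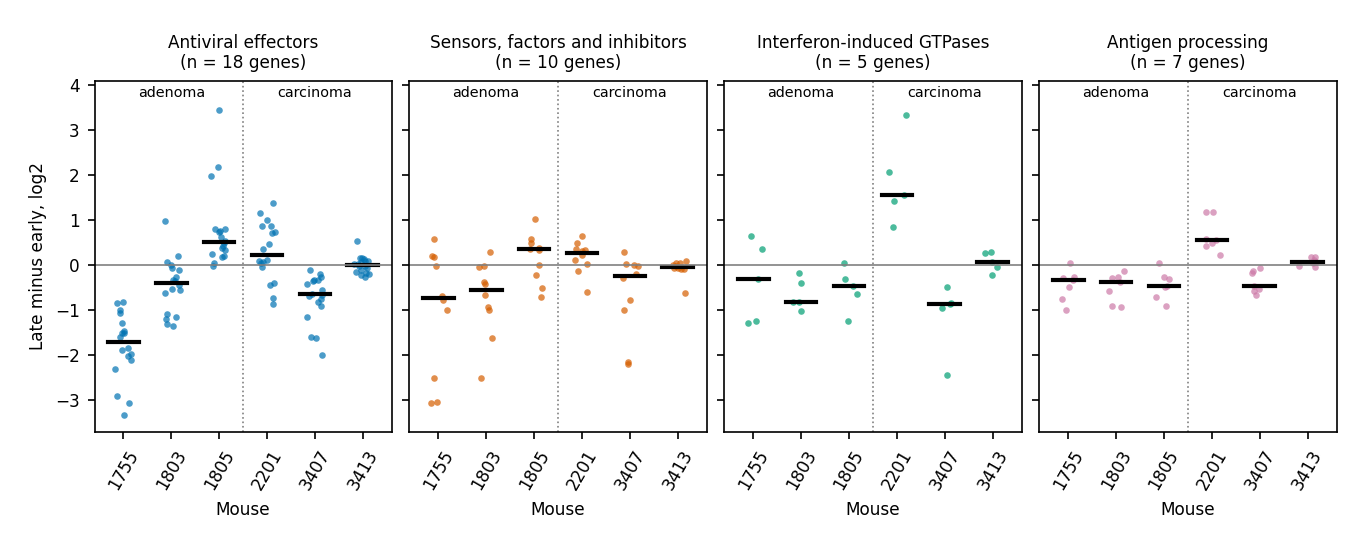
Late minus early log2 intensity of each gene (points) by mouse, in 4 panels by role group; black bars are the medians over the genes of the panel, and the dotted line separates the 3 adenoma mice from the 3 carcinoma mice. Antiviral effectors are at a median of -1.71 in mouse 1755 and 0.52 in mouse 1805, and GTPases at 1.58 in mouse 2201.

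Markers of other cell types stood apart on some of the same arrays. In the early biopsy of mouse 1755 the mean of 6 cytotoxic lymphocyte markers was 7.34, against 6.32 to 6.69 in the other early biopsies and 6.16 to 7.09 in the late ones. Of the 6, the granzymes Gzmb and Gzma, singled out after their values were seen, were at 11.04 and 8.07 there. The median late-early change of the 6 in mouse 1755 was -0.06, with 3 higher and 3 lower late. Only 2 of the 6 were lower late by more than 1, so the high early mean was not shared by all 6 markers. The mean of 4 mast cell markers was 11.86 in that biopsy and 8.19 to 10.74 on the other arrays. In mouse 2201 the median change was 0.88 for 4 general leukocyte markers, 1.07 for 6 T cell markers, 1.33 for 8 macrophage and monocyte markers and 0.63 for 7 dendritic cell markers. It was 1.17 for 5 fibroblast and 1.46 for 5 endothelial markers there, while 8 of 8 neutrophil markers (median -0.71) and 8 of 8 colon epithelium markers (median -0.22) were lower late. In mouse 1805 it was -1.15 for the T cell markers and -0.58 for the dendritic cell markers, whereas the neutrophil mean went from 8.11 to 10.57. Log2 intensities have no zero, and no marker was at 0. The part of these cells in the interferon response values was not tested. In biopsies of mixed tissue, fewer cells of a type and less RNA per cell cannot be told apart.

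Promoters are shown because groups of these genes were high together on single arrays. The RefSeq table for GRCm38.p6, which gives 250 bases before to 50 after a gene start, held 34 of the 45 genes, 30 of them measured. Mx1, Mx2, Oas2, Zbp1, Parp14, Dhx58, Nlrc5, Usp18, Gbp6, Iigp1 and Tap2 were not among them. Each was searched on both strands for an ISRE-type core, TTTCNNTTTC (GAAANNGAAA on the other strand), where neighbouring matches may overlap, and for a GAS-type core, TTCNNNGAA, which reads the same on both strands. The ISRE-type core was in 18 of 34 promoters (52.9%), against 3.99% of the 27025 genes in the table. By role it was in 6 of 6 GTPase promoters, in 8 of 15 antiviral ones, in 3 of 7 of sensors, factors and inhibitors, and in 1 of 6 antigen processing ones, that of B2m. The GAS-type core was in 10 of 34 (29.4%), against 9.55% of genes. A match is a description and no measured binding site.

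The stretches that follow were chosen to set antiviral genes that peaked in the early biopsy of mouse 1755 (Ifit1, Ifit3, Oas1a) or the late one of mouse 1805 (Rsad2) beside GTPases, and beside Irf1 and Psmb8, which hold the other core. Each is 30 bases, written 5' to 3' on the strand of the gene, with the matched cores in capitals.
Ifit1: TTTCACTTTCcagtctcagTTTCAGTTTCt
Ifit3: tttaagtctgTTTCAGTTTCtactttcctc
Rsad2: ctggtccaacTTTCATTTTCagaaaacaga
Oas1a: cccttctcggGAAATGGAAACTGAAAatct
Irgm1: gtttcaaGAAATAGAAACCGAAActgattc
Gbp3: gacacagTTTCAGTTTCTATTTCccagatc
Gbp7: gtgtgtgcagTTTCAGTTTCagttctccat
Irf1: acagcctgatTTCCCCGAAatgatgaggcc
Psmb8: tcctccgctgTTCCCAGAAgatgccccccc
Those of Ifit1 (chr19:34640785-34640814, plus strand, within the annotated spans of Ifit1bl1 and Ifit1bl2) and of Gbp3 (chr3:142559992-142560021, plus strand) hold 2 ISRE-type cores each, as do those of Oas1a (chr5:120907526-120907555, minus strand) and Irgm1 (chr11:48871428-48871457, minus strand). In Oas1a, Irgm1 and Gbp3 the 2 cores overlap. Ifit3 (chr19:34583397-34583426, plus strand), Rsad2 (chr12:26456553-26456582, minus strand) and Gbp7 (chr3:142530273-142530302, plus strand) show 1 such core each. Irf1 (chr11:53769914-53769943, plus strand) and Psmb8 (chr17:34198088-34198117, plus strand) show a GAS-type core. Those of Ifit3, Oas1a and Gbp3 lie within the annotated span of the gene itself. All 9 begin between 30 bases (Oas1a) and 132 bases (Ifit3) upstream of the start. Genes that peaked on different arrays, such as Ifit1, Rsad2 and Gbp7, thus hold the same core within these windows. Outside the stretches shown, the windows of Gbp7 and Oas1a also hold GAS-type cores, and that of Ifit3 a further ISRE-type core. The stretches therefore do not sort the genes by core.

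For late against early biopsies over all 6 tumors, the question is how a tumor differed from itself months before. The 40 genes had a median difference of -0.21, where all genes had -0.02, and 35 of 40 were lower late, where 57.9% of all genes were. No interferon response gene passed an adjusted p of 0.05 in limma with mouse as a block (Benjamini-Hochberg over all genes), and neither did any of the 19938 genes (0%). At an unadjusted p under 0.05, 1 of 40 was lower (background 9.06%) and 0 of 40 higher (5.68%). Lower in 6 of 6 mice were Usp18 and Bst2 (2 of 40), where 5.18% of all genes were, and 0 of 40 were higher in all 6, against 2.59% of all genes. Without mouse 1755 the median was -0.09 with 30 of 40 lower (59.6% of all genes). Without mouse 2201 it was -0.42 with 36 of 40 lower (52.2% of all genes). In that fit 10 of 40 were at an unadjusted p under 0.05, as were 2205 of all 19938 genes. Without mouse 1805 the median was -0.30, with 4 of 40 at an unadjusted p under 0.05, as were 2637 of all 19938 genes. The mean of the mouse medians was -0.19 over the 4 pairs that cross the sample number groups and -0.26 over the 2 pairs within 1 group, those of mice 3407 and 3413.

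Usp18, the protease that removes Isg15 from proteins and shuts off the type I receptor, was the gene that stood out. Its early values were 11.83, 10.50 and 10.10 in mice 1755, 1803 and 1805, and 10.69, 10.89 and 10.81 in mice 2201, 3407 and 3413. Its late values were 8.79, 8.01 and 9.40 in the adenoma mice and 10.10, 8.75 and 10.19 in the carcinoma mice. Every mouse was lower late, but the groups overlapped, since the late values of mice 2201 and 3413 lay just above the early one of mouse 1805. The mean went from 10.80 ± 0.58 to 9.21 ± 0.85 (SD, n = 6), a difference of -1.60 (SE 0.36), or 3.02-fold lower, with an adjusted p of 0.221 in limma. It did not follow the antiviral genes in every mouse: in mouse 1805 it was lower by 0.70 while Ifit1 was higher, and its difference in mouse 2201 was -0.59. Bst2 (tetherin), which holds budding virions on the cell surface, had changes of -1.06, -0.06 and -0.01 in the adenoma mice and -0.04, -0.26 and -0.18 in the carcinoma mice. Its mean difference was -0.27 (SE 0.14), most of it from mouse 1755.

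By role, 17 of 18 antiviral effectors were lower late (median -0.31), as were 8 of 10 sensors, factors and inhibitors (-0.12), 4 of 5 GTPases (-0.12) and 6 of 7 antigen processing genes (-0.17). The differences were small next to the spread over mice for the genes given in every comparison. Ifit1 differed by -0.63 (SE 0.64), Irf7 by -0.84 (SE 0.56) and Irf1 by -0.01 (SE 0.17). Tap1, a chain of the peptide pump into the endoplasmic reticulum, differed by -0.17 (SE 0.24), the immunoproteasome subunit Psmb8 by -0.33 (SE 0.29) and B2m, the light chain of MHC class I, by -0.13 (SE 0.14). Adjusted p values in limma for these 6 genes ran from 0.516 to 0.987. On the higher side stood Gbp5 at 0.29 (SE 0.31), Rsad2 at 0.25 (SE 0.62), Irf8, a myeloid and lymphoid factor, at 0.16 (SE 0.14), and Nlrc5 at 0.04 (SE 0.05).

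**Figure D3:**
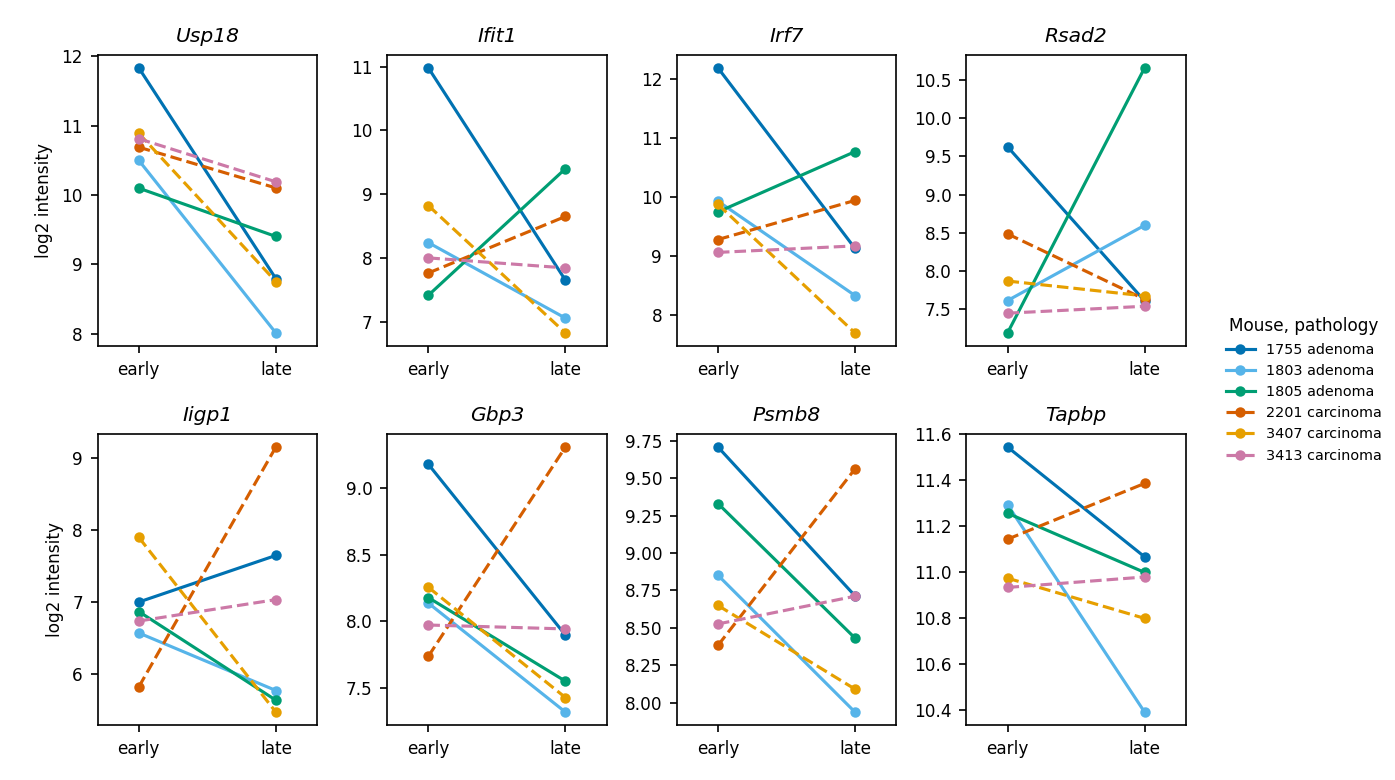
Log2 intensity in the early and late biopsy of each mouse (1 line per mouse, solid for adenoma, dashed for carcinoma) for 8 genes, each with its own vertical scale. Usp18 is lower late in 6 of 6 mice, Ifit1 and Irf7 run in opposite directions in mice 1755 and 1805, and Iigp1 and Gbp3 are highest in the late biopsy of mouse 2201.

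In the tumors that ended as adenoma, 37 of 40 genes were lower late (52.8% of all genes), with a median of -0.45 (all genes -0.01). None of the 40 passed the adjusted threshold in limma, where 25 of 19938 genes did (0.125%). At an unadjusted p under 0.05, 5 of 40 were lower (background 10.7%) and 0 higher (7.38%). In all 3 mice, 11 of 40 were lower, against 22.4% of all genes, and 0 of 40 higher, against 17.0%. These 11 were Usp18, Tapbp, Psmb8, Tap2, Psmb9, Gbp3, Bst2, Tap1, B2m, Gbp7 and Socs1, so 6 of the 7 antigen processing genes were lower in 3 of 3 adenoma mice while 1 of 18 antiviral effectors was. Cell type markers differed in the same tumors, none past the adjusted threshold in limma: late minus early, the median was 1.996 for 8 neutrophil markers (7 of 8 higher), 0.93 for 5 fibroblast markers (5 of 5 higher), 1.42 for 5 endothelial markers (5 of 5 higher) and -1.80 for 4 mast cell markers (4 of 4 lower). Their part in these values was not tested.

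Psmb8, which swaps into the proteasome to favor peptides for MHC class I, was at 9.71, 8.85 and 9.33 early and at 8.71, 7.94 and 8.43 late in mice 1755, 1803 and 1805. The per-mouse changes of -0.99, -0.91 and -0.90 were close to one another, with a mean of -0.94 (SE 0.28) and an adjusted p of 0.174 in limma. All 3 late values lay below all 3 early ones. Tapbp (tapasin), which loads peptides onto MHC class I, was at 11.55, 11.29 and 11.26 early and at 11.07, 10.39 and 11.00 late in these mice. The difference was -0.55 (SE 0.14), with an adjusted p of 0.133 in limma, and again the early and late values did not overlap. The share of all genes with early and late values apart in this way was not counted. Under the weaker condition of being lower in all 3 mice it was 22.4% of all genes. Tap2 differed by -0.28 (SE 0.11), Psmb9 by -0.43 (SE 0.18), Tap1 by -0.53 (SE 0.31) and B2m by -0.28 (SE 0.19). Usp18 differed by -2.08 (SE 0.48), or 4.22-fold, with an adjusted p of 0.119 in limma.

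Among the antiviral and factor genes, Ifit1 differed by -0.84 (SE 0.96), Irf7 by -1.21 (SE 0.81) and Irf1 by -0.05 (SE 0.26) in adenoma tumors. The genes on the higher side were Rsad2 at 0.81 (SE 0.88), Irf8 at 0.13 (SE 0.21) and Nlrc5 at 0.07 (SE 0.08). The median over the 40 genes depended on single mice. It was -0.15 without mouse 1755, with 28 of 40 lower (54.8% of all genes). Without mouse 1805 it was -0.73, with 23 of 40 at an unadjusted p under 0.05, as were 2979 of all 19938 genes. With the sample number group as a term the median became -1.19, with a correction that rests on carcinoma mouse 2201.

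In the tumors that ended as carcinoma, the 40 genes had a median difference of 0.01 (all genes -0.03), with 22 higher and 18 lower, where 60.2% of all genes were lower. None of the 40 passed in limma (0% of all genes passed), and 0 of 40 reached an unadjusted p under 0.05 (background 1.70% higher and 2.61% lower). In 3 of 3 mice, Irf8 was higher (9.73% of all genes) and Usp18, Oasl1, Mx2 and Bst2 were lower (16.9%). The antiviral effectors were mostly lower (13 of 18, median -0.22), whereas 4 of 5 GTPases (median 0.24) and 7 of 7 antigen processing genes (median 0.09) were higher. Mouse 2201 carried much of this: without it 35 of 40 were lower (50.5% of all genes) and the median was -0.26. Without mouse 3407 the median was 0.24 with 10 of 40 lower (62.8% of all genes). Of the cell type markers, the median was 0.19 for neutrophils (6 of 8 higher) and 0.24 for fibroblasts (5 of 5 higher). It was 0.53 for endothelium (5 of 5 higher) and -1.22 for mast cells (3 of 4 lower).

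Usp18 differed by -1.12 (SE 0.48) in carcinoma tumors, with an adjusted p of 0.952 in limma. Oasl1, a brake on Irf7 translation, differed by -0.48 (SE 0.39), Mx1 by -0.36 (SE 0.41) and Mx2 by -0.24 (SE 0.24). Ifit1 differed by -0.42 (SE 0.96), Irf7 by -0.47 (SE 0.81), Irf1 by 0.03 (SE 0.26) and B2m by 0.01 (SE 0.19). On the higher side were Gbp5 at 0.62 (SE 0.43), Psmb8 at 0.27 (SE 0.28), Psmb10, a further immunoproteasome subunit, at 0.25 (SE 0.17), Tap1 at 0.20 (SE 0.31) and Irf8 at 0.19 (SE 0.21).

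The difference of the changes, carcinoma minus adenoma, tests whether the time course depended on the final pathology. It was above 0 for 36 of 40 genes and below 0 for 4 (52.9% of all genes), with a median of 0.42 (all genes -0.01), and none passed in limma (0% of all genes passed). At an unadjusted p under 0.05, 2 of 40 were higher (background 3.68%) and 0 lower (3.37%). The per-mouse changes of carcinoma mice lay above those of adenoma mice without overlap for Psmb8, Tapbp and Tap2, all of antigen processing, 3 of 40 against 6.39% of all genes; the reverse held for 0 of 40 (6.67%). In the carcinoma mice the Psmb8 values were 1.18, -0.56 and 0.19, against -0.99, -0.91 and -0.90 in the adenoma mice, a difference of 1.20 (SE 0.40) with an adjusted p of 0.639 in limma. For Tapbp the changes were 0.24, -0.17 and 0.05 against -0.48, -0.90 and -0.26, a difference of 0.58 (SE 0.20) with an adjusted p of 0.640 in limma. Tap2 followed at 0.37 (SE 0.16) and Gbp3 at 1.15 (SE 0.57).

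The other genes given in every comparison had smaller differences of the changes next to their errors. These were 0.73 (SE 0.44) for Tap1, 0.29 (SE 0.27) for B2m, 0.74 (SE 1.15) for Irf7, 0.42 (SE 1.36) for Ifit1 and 0.08 (SE 0.37) for Irf1. The 4 genes below 0 were Rsad2 at -1.13 (SE 1.25), Oasl1 at -0.08 (SE 0.55), Nlrc5 at -0.07 (SE 0.11) and Mx2 at -0.05 (SE 0.34). The median over the 40 genes was 0.13 without mouse 1755, with 16 below 0 (51.1% of all genes), and 0.15 without mouse 2201. It was 0.70 without mouse 1805, with 2 below 0 (52.9% of all genes). In that fit 9 of 40 were at an unadjusted p under 0.05 (1307 of all 19938 genes). Without mouse 3407 it was 0.73, with 3 below 0 (56.2% of all genes) and 8 of 40 under that p (1254 of all genes).

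**Figure D4:**
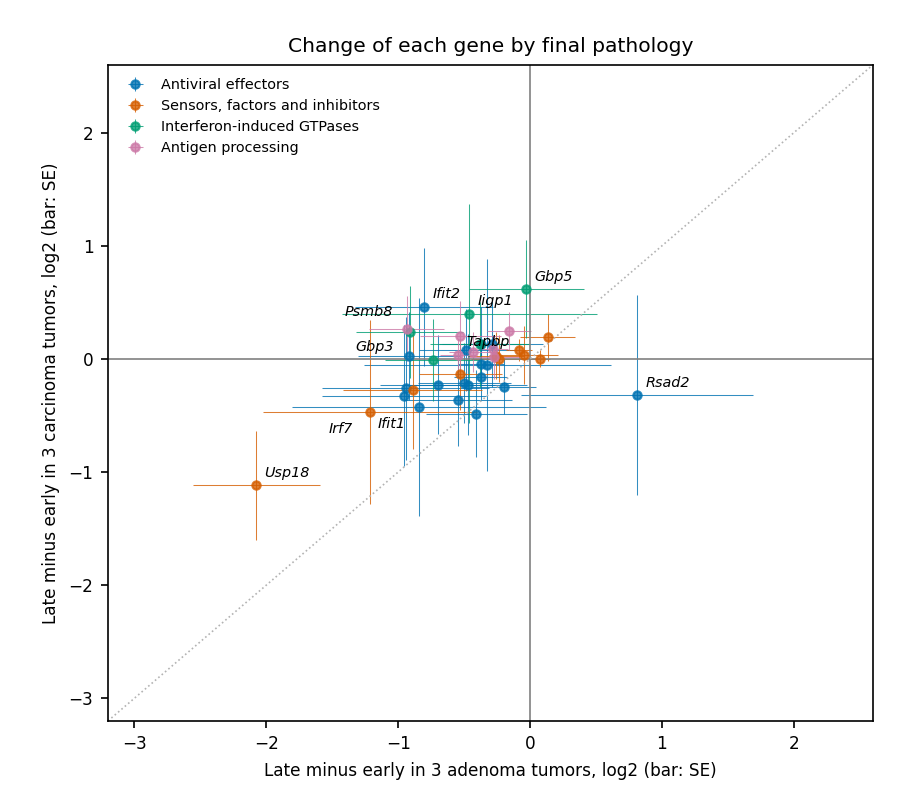
Late minus early log2 difference of each of the 40 genes in the 3 adenoma tumors (horizontal) against the 3 carcinoma tumors (vertical), colored by role, with limma standard errors as bars; the dotted diagonal marks equal change. Usp18 is lower late in both, at -2.08 and -1.12, and 36 of 40 genes lie above the diagonal.

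Between late biopsies, carcinoma minus adenoma, the median over the 40 genes was 0.12 (all genes 0.02), with 26 higher and 14 lower in carcinoma (45.8% of all genes lower). None passed in limma (0% of all genes passed), none reached an unadjusted p under 0.05 (background 6.74% higher and 5.00% lower), and for none did the 3 values of each group lie apart (8.77% of all genes higher and 6.12% lower). All 5 GTPases were higher (median 0.64), with mouse 2201 as the highest late array of each. The median of the 40 became -0.11 without mouse 2201 and -0.06 without mouse 1803, where 395 of all 19938 genes, and none of the 40, passed in limma. It was 0.23 without mouse 1755, 0.25 without mouse 1805 and 0.25 without mouse 3407. Usp18 was higher by 0.95 (SE 0.54) in carcinoma, Gbp5 by 0.67 (SE 0.43), Psmb8 by 0.43 (SE 0.35), Socs1 by 0.29 (SE 0.14) and Nlrc5 by 0.13 (SE 0.09). Lower in carcinoma were Rsad2 at -1.34 (SE 0.86), Oasl1 at -0.92 (SE 0.44), Ifih1 (MDA5), a sensor of double-stranded RNA, at -0.47 (SE 0.43), and Oas3 at -0.36 (SE 0.49). Ifit1 differed by -0.26 (SE 0.99), Irf7 by -0.47 (SE 0.86), Irf1 by -0.09 (SE 0.34), Tap1 by 0.26 (SE 0.39) and B2m by 0.19 (SE 0.24). Of the cell type markers, 8 of 8 for colon epithelium (median -0.34) and 8 of 8 for neutrophils (-0.75) were lower in carcinoma. Higher there were 6 of 6 for T cells (0.44) and 4 of 4 for mast cells (0.93). Their part in these values was not tested.

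Between early biopsies, grouped by what the tumor became, 35 of 40 genes were lower in the carcinoma group, with a median of -0.37 (all genes 0.04, of which 39.9% lower). None passed in limma (0% of all genes passed). At an unadjusted p under 0.05, Psmb8 was lower (1 of 40, background 4.90%) and Nlrc5 higher (1 of 40, background 7.06%). The groups of 3 did not overlap for 6 genes, all lower in carcinoma: Psmb8, Psmb10, Psmb9, Tapbp, Ifih1 and Oasl1 (6 of 40, against 7.31% of all genes). Psmb8 was at 9.71, 8.85 and 9.33 in the early adenoma biopsies and at 8.38, 8.65 and 8.53 in the early carcinoma biopsies, a difference of -0.78 (SE 0.35) with an adjusted p of 0.418 in limma. The lowest adenoma value, that of mouse 1803, was above the highest carcinoma value, that of mouse 3407.

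Mouse 1755 carried most of this: without it 18 of 40 genes were lower (41.2% of all genes) and the median was 0.08. Without mouse 1803 the median was -0.54, with 38 of 40 lower (37.9% of all genes). Of the 40, 9 were then at an unadjusted p under 0.05 (3041 of all 19938 genes). In that fit 67 of all genes passed the adjusted threshold in limma, none of them among the 40. Without mouse 1805 the median was -0.55. Psmb10 differed by -0.55 (SE 0.25), Ifih1 by -0.87 (SE 0.43), Psmb9 by -0.46 (SE 0.24), Oasl1 by -0.85 (SE 0.44) and Tapbp by -0.35 (SE 0.19). Irf7 differed by -1.22 (SE 0.86), Ifit1 by -0.68 (SE 0.99), Tap1 by -0.47 (SE 0.39), Irf1 by -0.17 (SE 0.34) and B2m by -0.10 (SE 0.24). Above 0 were Nlrc5 at 0.20 (SE 0.09), Socs1 at 0.13 (SE 0.14), Gbp5 and Stat2, a partner of Irf9, at 0.02 each (SE 0.43 and 0.29), and Iigp1 at 0.01 (SE 0.97). Of the cell type markers, 5 of 5 for fibroblasts (median 0.87) and 5 of 5 for endothelium (0.88) were higher in the early carcinoma biopsies. Lower there were 7 of 8 for colon epithelium (-0.21) and 4 of 4 for B and plasma cells (-1.53). The part of these cells was not tested. The comparison over late biopsies and the one over early biopsies use different arrays of the same 6 mice. The difference of the changes equals the late difference minus the early one. The changes in adenoma tumors use the same early adenoma arrays. Results for a gene in these comparisons therefore share values and are not independent of one another.

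Of the other genes of the pathway, 59 from the lists used were measured. None of the 59 passed in limma in any of the 6 comparisons. Of the 7 interferon genes measured, Ifng, the interferon gamma gene, was between 6.74 and 7.15 on all 12 arrays. Ifnb1, the interferon beta gene, was between 5.56 and 6.00. Their late-early differences over all tumors were -0.12 (SE 0.07) and -0.10 (SE 0.06). Ifna2 and Ifnk spanned 0.74 and 0.71. Ifnb1 was about as dim as Mx2 (mean 5.85), and Ifng lay near Iigp1 (mean 6.80, 26.8th percentile of all genes). At such levels a change can go unseen. The receptor subunits Ifnar1 (type I) and Ifngr1 (gamma) differed by -0.03 (SE 0.05) and 0.14 (SE 0.12).

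Further targets leaned the same way as the antigen processing genes in adenoma, where 20 of 22 were lower late (median -0.45) and 7 reached an unadjusted p under 0.05. Of all genes, 52.8% were lower late in these tumors and 10.7% were lower at an unadjusted p under 0.05. Ifitm1, a membrane protein that blocks viral entry, differed by -0.97 (SE 0.17) there, and the proteasome activator Psme1 by -0.48 (SE 0.08), with adjusted p values of 0.0866 and 0.0741 in limma. Among upstream sensors, Sting1, the adaptor of cytosolic DNA sensing, differed by -0.73 (SE 0.11) and Ddx58 (RIG-I), a sensor of viral RNA, by -0.76 (SE 0.13), with adjusted p values of 0.0694 and 0.0834 in limma. In carcinoma tumors 12 of these 22 targets were higher and 10 lower (median 0.02), and the difference of the changes was 0.55 (SE 0.11) for Psme1 and 0.63 (SE 0.15) for Sting1, neither past the adjusted threshold. Ifitm1 was lower in 6 of 6 mice, at -0.75 (SE 0.14) over all tumors, with an adjusted p of 0.206 in limma. It was 1 of 22 further targets lower in all 6, against 5.18% of all genes.

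Between late biopsies Gbp9 and Sting1 were higher in carcinoma, by 1.37 (SE 0.30) and 0.85 (SE 0.19), with groups of 3 that did not overlap and an adjusted p of 0.401 each in limma. Carcinoma lay above adenoma without overlap for 5 of 22 further targets and 1 of 13 upstream sensors and adaptors, against 8.77% of all genes. Cxcl9, a chemokine that interferon gamma induces and that draws T cells, was named after its values were seen: it was at 7.69 early and 12.01 late in mouse 2201, between 7.05 and 10.26 on the other 10 arrays, and its change of 4.32 was the largest of the 22 further targets in any mouse.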

How the data were processed

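The deposited values of 35557 probe sets on 12 arrays were read as log2 intensities from their range and medians; the unit and the authors' steps from scan to deposited log2 values (summary, normalisation) are not given in the sources used here. Per the labels' protocols, each biopsy was stored in RLT buffer or RNALater, without saying which, and 300 ng of its RNA went into an Ambion WT Expression labelling. Scanner files were not used here.

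Of the probe sets, 21789 carry 1 gene symbol in the platform annotation, 1621 several and 12147 none. Gene identifiers of 21698 were found in a RefSeq gene table, which changed 0 symbols. For the 999 genes with more than 1 probe set the one with the highest mean was kept, which left 19938 genes with no filter on dim ones. The member genes, the role groups, the further pathway lists, the marker lists and the naming rule were chosen with earlier results of these data known. The rule named in every comparison Isg15, Ifit1, Irf1, Irf7, Gbp2, Tap1, Psmb8 and B2m where measured, members past the threshold, 4 per direction by smallest p, members alike in 6 of 6 mice or in non-overlapping groups, and for further lists up to 3 genes each beside Ifng, Ifnb1, Ifnar1 and Ifngr1.

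Tests used limma 3.58.1 under R 4.3.3 (lmFit, eBayes, 2-sided, Benjamini-Hochberg over all genes, threshold 0.05). Late against early, and its difference by pathology, had mouse as a fixed block (5 and 4 residual degrees of freedom). Carcinoma against adenoma at each time treated mouse as random through duplicateCorrelation (consensus 0.286) with 8 residual degrees of freedom. The pairs come from the animal: the 2 arrays of a mouse, as deviations from their time point's mean, correlated at 0.110 to 0.527. The lowest was that of mouse 2201, whose early array correlated more with the late array of another mouse. In every other mouse the own late array was the best match. Replicates are mice, 3 per group. Not overlapping means that all 3 values of a group lie above all 3 of the other, or that every mouse differs the same way. The fit was tested on simulated data in which genes varied independently and with the same spread. That test therefore does not cover genes that move together on 1 array. Alternatives were array centring, quantile normalisation, a filter on dim genes, the mean of probe sets, trended robust variance, no block, the sample number group or sex as a term, and leaving out each mouse.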

Additional observations from a re-analysis of the deposited data

Results flagged for a closer look

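A sample far from the other 5 of its group was looked for in each gene, with Dixon's test for the gap of the highest or lowest of 6 values at its 95% critical value. Chance flags about 1 in 20 groups; over all genes the share was 6.62% for early values, 10.9% for late values and 7.12% for changes, and for the 40 interferon response genes the counts were 16, 2 and 5. The test of a single gene takes no account of genes that move together on 1 array.

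All 16 early values were those of mouse 1755, each the highest. They were Irf7 at 12.20, Oasl2 at 11.70, Ifit3 at 11.16, Zbp1 at 10.59, Oas2 at 10.57, Irgm1 at 10.40, Parp14 at 10.33, Dhx58 at 10.18, Ifi35 at 10.10, Bst2 at 10.03, Oas1a at 9.96, Xaf1 at 9.62, Cmpk2 at 9.52, Oas3 at 9.36, Gbp3 at 9.18 and Mx1 at 8.04. Of these genes 12 are antiviral effectors, and none is an antigen processing gene.

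The 2 late values were Gbp3 at 9.31 in mouse 2201 and Rsad2 at 10.66 in mouse 1805. Among the late-early changes, those of mouse 1755 stood apart for Bst2 (-1.06), Cmpk2 (-1.45) and Nlrc5 (0.21), and those of mouse 2201 for Gbp5 (2.07) and Gbp7 (1.44).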

How the results depend on the processing

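Of 1047 settings of the 79 named differences, 0 calls were gained or lost, and 66 changed the sign of a difference that was not past the threshold, 43 of them by leaving out a mouse. None of the 40 genes passed the threshold in any setting run, while their medians moved with single mice, as given beside each comparison. With the sample number group as a term the adenoma median was -1.19 in place of -0.45, and the median difference of the changes 0.91 in place of 0.42. The median between early biopsies was -0.63 in place of -0.37. All adenoma pairs cross those groups, and of the carcinoma pairs only that of mouse 2201 does. That fit therefore takes its correction from mouse 2201 against mice 3407 and 3413. Its carcinoma median, -0.26, was the same as without mouse 2201. These medians thus carry the values of a single mouse and cannot separate the number group from it. Without the replicate block the paired estimates were the same by construction, with a median of -0.21 over all tumors and an adjusted p of 0.408 for Usp18 in limma, in place of 0.221; the block changed no call among the 40 genes. The count of all genes past the threshold in adenoma tumors, 25, ran from 0 to 78 over the alternatives. The means of several probe sets turned the sign for Nlrc5 (-0.07) and Irf1 (0.05) over all tumors, and for Nlrc5 also between early biopsies. Only 6 pairs were measured, and the SEs over all tumors, 0.64 for Ifit1 and 0.56 for Irf7, stand beside differences of -0.63 and -0.84.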
